A study of Mus musculus with 7 samples.

Results

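The axon guidance genes described here are the semaphorins and their plexin and neuropilin receptors, the ephrins and their Eph receptors, the slits and their Robo receptors, and the netrins with their Dcc and Unc5 receptors. They were chosen by gene name, as the protein-coding rows of the gene count table named Sema3 to Sema7, Plxna to Plxnd, Epha, Ephb, Efna, Efnb, Slit1 to Slit3, Robo1 to Robo4, Ntn1 to Ntn5, Unc5a to Unc5d, Nrp1, Nrp2 and Dcc. This gave 70 gene records of the 38924 in the table, with 69 distinct names. Efna5 has 2 records, the shorter of which lies inside the longer on the same strand, so that their counts are not independent. Every one of the 70 passed the low-count filter in both comparisons below. The name rule used no measured value, though the members were chosen with earlier results of these data known.

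The samples were polyadenylated RNA from dissected hippocampus of adult mice that received no treatment. Sequencing covered wild-type Ammon's horn (the CA fields and their pyramidal cells) in 3 libraries, Ammon's horn with Khdrbs3 deleted on both alleles in 3 libraries, and wild-type dentate gyrus (the region of the granule cells) in 1 library. Per the labels, all 7 libraries, the wild-type ones included, came from a line in which the null allele of Khdrbs3, also called Tstar, had been bred to C57Bl6 for 8 generations. Khdrbs3 encodes an RNA-binding regulator of splicing, and the labels name no cell type or age to which its deletion is limited. The labels do not say whether a library came from 1 animal or from a pool, so each p-value reflects only library-to-library spread, which may be technical.

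Guidance genes encode secreted or membrane-bound cues and the receptors that read them. Semaphorins act through plexins, with neuropilins as the ligand-binding subunit for most secreted class 3 semaphorins. Ephrins bind Eph receptor tyrosine kinases on neighbouring cells and can signal in both directions. Slits repel axons through Robo receptors, and netrins attract through Dcc or repel through Unc5 receptors. In the hippocampus these families are known for laying out the mossy fibres, which run from granule cells to CA3, and for shaping dendritic spines in the adult.

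Depth and sample identity were examined first. Library totals ran from 50230733 to 67692326 counts in the gene table and from 29698245 to 39904606 in exon bins. Reads in the second exon bin of Khdrbs3 numbered 808, 1103 and 964 in the 3 wild-type Ammon's horn libraries and 6, 9 and 7 in the knockout, which fits the labels. The loss was seen in that bin and not over the whole Khdrbs3 record, which was higher in the knockout. The record stood at 198, 203 and 197 CPM (counts scaled by TMM to a common library size) against 142, 143 and 134 CPM in the wild type. Its log2 fold change was 0.51 ± 0.05 SE (edgeR adjusted p = 0.00245). Summed over 7 CA1 pyramidal markers, the level lay between 787 and 875 CPM in the 6 Ammon's horn libraries and was 133 CPM in the dentate gyrus. Summed over 8 granule cell markers it lay between 172 and 220 CPM and was 926 CPM. No marker of either list was at 0 in every library. The 9 choroid plexus markers summed to 154, 41.8 and 24.4 CPM in wild-type replicates 1 to 3, to 797, 21.5 and 739 CPM in the knockout, and to 267 CPM in the dentate gyrus, so that knockout replicates 1 and 3 stand apart. The 8 oligodendrocyte markers summed to 4602, 4517 and 4450 CPM, to 3936, 3804 and 4061 CPM, and to 1558 CPM. In bulk tissue, fewer cells of a type and less RNA per cell cannot be told apart.

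Promoter sequences are shown for 3 of the genes whose levels differed most between regions: Sema5a and Ntn5, the genes with the largest increases in the dentate gyrus, and Unc5b, a gene with a decrease. Each is the 250 bases upstream of the RefSeq start in GRCm38.p6, written 5′ to 3′ on the gene's strand, and capitals mark matches to the GC box GGGCGG on either strand, overlapping matches included.
Sema5a, chr15:32244563-32244812, plus strand: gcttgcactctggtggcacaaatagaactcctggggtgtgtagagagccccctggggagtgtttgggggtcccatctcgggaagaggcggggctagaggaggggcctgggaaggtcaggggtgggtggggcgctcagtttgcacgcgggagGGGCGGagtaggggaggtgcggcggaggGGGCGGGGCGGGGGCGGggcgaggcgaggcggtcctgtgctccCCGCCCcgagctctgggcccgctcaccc
Ntn5, chr7:45683772-45684021, plus strand: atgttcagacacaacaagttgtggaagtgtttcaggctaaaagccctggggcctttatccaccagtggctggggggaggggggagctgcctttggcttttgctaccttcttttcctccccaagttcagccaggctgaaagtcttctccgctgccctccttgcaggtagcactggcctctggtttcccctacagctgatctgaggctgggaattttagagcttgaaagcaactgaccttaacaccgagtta
Unc5b, chr10:60831582-60831831, minus strand: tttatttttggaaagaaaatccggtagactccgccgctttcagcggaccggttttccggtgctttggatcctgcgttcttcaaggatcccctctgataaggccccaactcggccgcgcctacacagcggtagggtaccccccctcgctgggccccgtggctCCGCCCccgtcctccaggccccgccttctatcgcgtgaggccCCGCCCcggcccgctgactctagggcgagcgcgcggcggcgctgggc
The Sema5a window is 72% G and C, has 5 GC boxes and overlaps Snhg18, a noncoding gene of the opposite strand. The Unc5b window is 66.8% G and C and has 2. The Ntn5 window is 52.8% G and C, has 2 CpG dinucleotides and no GC box, and lies inside the record of Sec1, a gene of the opposite strand. A window was found for 59 of the 69 gene names and for 6 of the 8 genes that differed at least 2-fold between regions. Over all 32851 windows of this length in the table, 32.74% held a GC box, against 53 of the 75 windows of guidance genes. The E-box CAGATG, a sequence that NEUROD-type factors can bind, was in 14.44% of all windows, in 5 of the 75, and in none of the 3 printed. These matches describe letters only, and no binding data are part of the study.

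The comparison of the dentate gyrus with wild-type Ammon's horn asks which guidance genes differ between the hippocampal regions. Sema5a, Ntn5, Robo3, Epha7, Plxna4 and Sema3b were at least 2-fold higher in the dentate gyrus, and Ephb3 and Unc5b were at least 2-fold lower. These are 6 and 2 of 70 records, where 2.22% and 1.76% of the 24486 records tested were called higher and lower in this way. With no limit on the fold, 21 were higher and 13 lower, where 11.2% and 10.9% of all records tested were, and 36 were not called. Calls of 11 of these records were lost under at least 1 alternative, named below where leaving out a library did so. The counts by family below also have no fold limit. They are to be read against those 11.2% and 10.9%, and some families have few records. The dentate gyrus library lay above all 6 Ammon's horn libraries in 32 records and below all 6 in 22, where 28.5% and 28.3% of all records tested did. The median log2 fold change was 0.02 over the guidance genes and -0.01 over all records. The call is an adjusted p under 0.05 in edgeR's quasi-likelihood F test with Benjamini-Hochberg adjustment over all records. Because the dentate gyrus is 1 library, its spread was taken from the 6 Ammon's horn libraries, and no value for it has a replicate check.

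**Figure D1:**
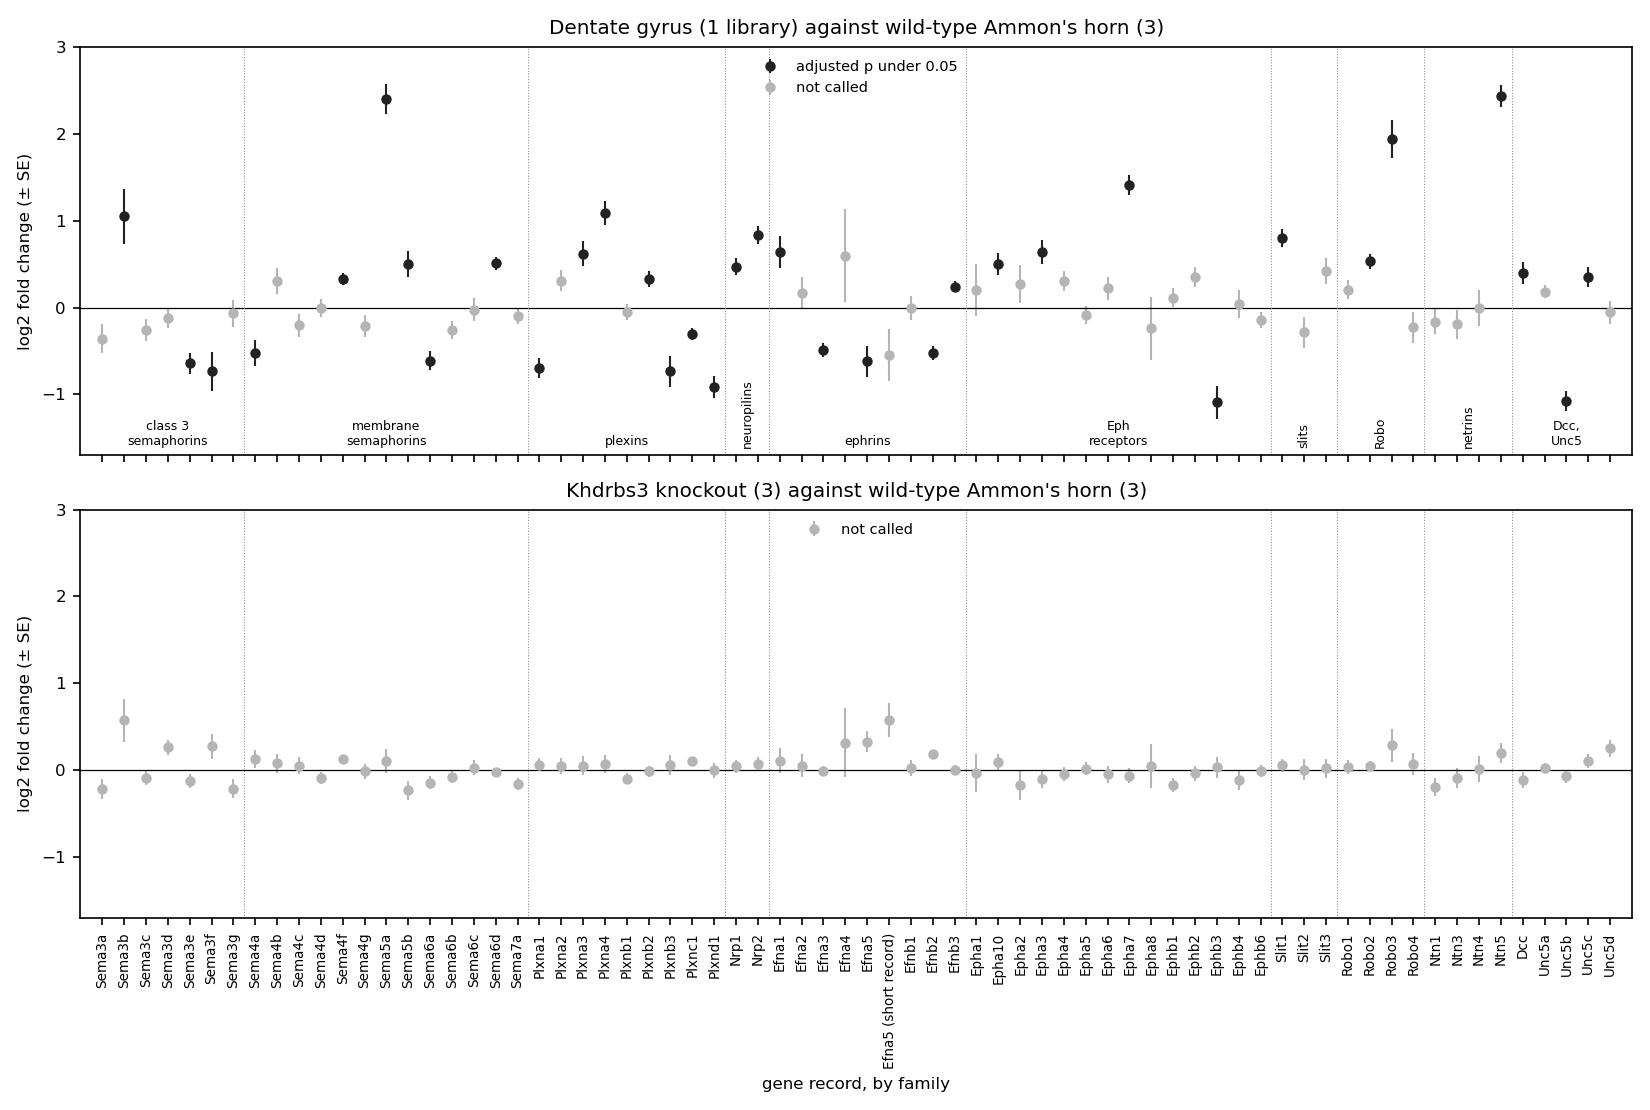
Log2 fold change with its standard error for each of the 70 guidance gene records, grouped by family, for the dentate gyrus against wild-type Ammon's horn (top) and for the Khdrbs3 knockout against wild-type Ammon's horn (bottom); black points have an adjusted p under 0.05. In the dentate gyrus 21 records lie above and 13 below the zero line as black points, while every point of the knockout panel is grey.

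Among the secreted class 3 semaphorins, ligands of neuropilin and plexin complexes, 1 of 7 was called higher in the dentate gyrus and 2 lower. Sema3e, a ligand that binds Plxnd1 directly, was at 74.8, 71.2 and 89.5 CPM in wild-type Ammon's horn, at 66.6, 74.5 and 74.7 CPM in the knockout and at 50.3 CPM in the dentate gyrus (log2 fold change -0.64 ± 0.12 SE, edgeR adjusted p = 0.00385). Its receptor Plxnd1 was also lower, at 20.03, 23.6 and 24.4 CPM in wild-type Ammon's horn, at 23.4, 22.7 and 21.8 CPM in the knockout and at 12.01 CPM in the dentate gyrus (-0.92 ± 0.13). For both genes of this ligand and receptor pair the dentate gyrus library lay below all 6 others. Plxnd1 is also a gene of blood vessels, and 6 endothelial and mural markers summed to 253, 248 and 278 CPM in the 3 wild-type Ammon's horn libraries and to 211 CPM in the dentate gyrus. With no fold limit, 2 of the 6 were called lower, Rgs5 (-0.55) and Cldn5 (-0.38), and none was called higher. The part of vessels in the Plxnd1 value was not tested.

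Sema3f, a repellent cue read by Nrp2 with Plxna3, was at 1.97, 2.29 and 2.08 CPM in wild-type Ammon's horn, at 2.75, 2.31 and 2.62 CPM in the knockout and at 1.27 CPM in the dentate gyrus (-0.73 ± 0.22). Both of its receptor subunits differed in the other direction. Nrp2 rose from 63.8, 67.3 and 78.5 CPM to 125 CPM (0.84 ± 0.10), and Plxna3 rose from 11.5, 13.0 and 12.3 CPM to 18.9 CPM (0.62 ± 0.15). In the dentate gyrus, ligand was thus below and both receptor subunits above all 6 Ammon's horn libraries. Of all records tested, 28.3% lay below all 6 and 28.5% above. At its low CPM values, Sema3f rests on few reads. The Sema3f call was lost with DESeq2 (adjusted p = 0.0610) and with limma-voom (adjusted p = 0.0543), and without wild-type replicate 2 (adjusted p = 0.0786) or replicate 3 (adjusted p = 0.0548). Nrp1, the subunit for Sema3a, rose from 91.7, 92.1 and 109 CPM to 135 CPM (0.47 ± 0.10), and Sema3a itself, at 5.37, 5.76 and 4.96 CPM against 4.18 CPM, was not called.

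Sema3b, another secreted semaphorin, is the least secure of the increases of at least 2-fold. It was at 2.06, 1.64 and 1.44 CPM in wild-type Ammon's horn, at 2.70, 1.64 and 3.31 CPM in the knockout and at 3.54 CPM in the dentate gyrus (1.05 ± 0.32, edgeR adjusted p = 0.0387), from 86 to 220 counts per library. The libraries high in Sema3b, knockout replicates 1 and 3 and the dentate gyrus, were also those high in choroid plexus markers. With the mean level of those markers as a covariate, an alternative added after seeing the data, the dentate gyrus difference was 0.65 and was not called (adjusted p = 0.0731). The dentate gyrus calls of Efna1, Efnb3, Sema4a and Unc5c were also lost with this covariate. Of the 9 markers, none was at 0 in every library, and their sums are given above. The 6 meningeal fibroblast markers summed to 90.9, 83.1 and 94.8 CPM in the wild type and to 88.6 CPM in the dentate gyrus; 4 of them, such as Col1a1 at 4.45, 5.74 and 6.16 CPM against 13.8 CPM, were at least 2-fold higher, and Dcn, also listed as a CA1 marker, was lower, at 65.2, 54.4 and 62.5 CPM against 20.5 CPM. The Sema3b call was also lost without wild-type replicate 2 (1.02, adjusted p = 0.0754) and without replicate 3 (0.94, adjusted p = 0.0800). The part of choroid plexus or meninges in the Sema3b value was not tested beyond that covariate.

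**Figure D2:**
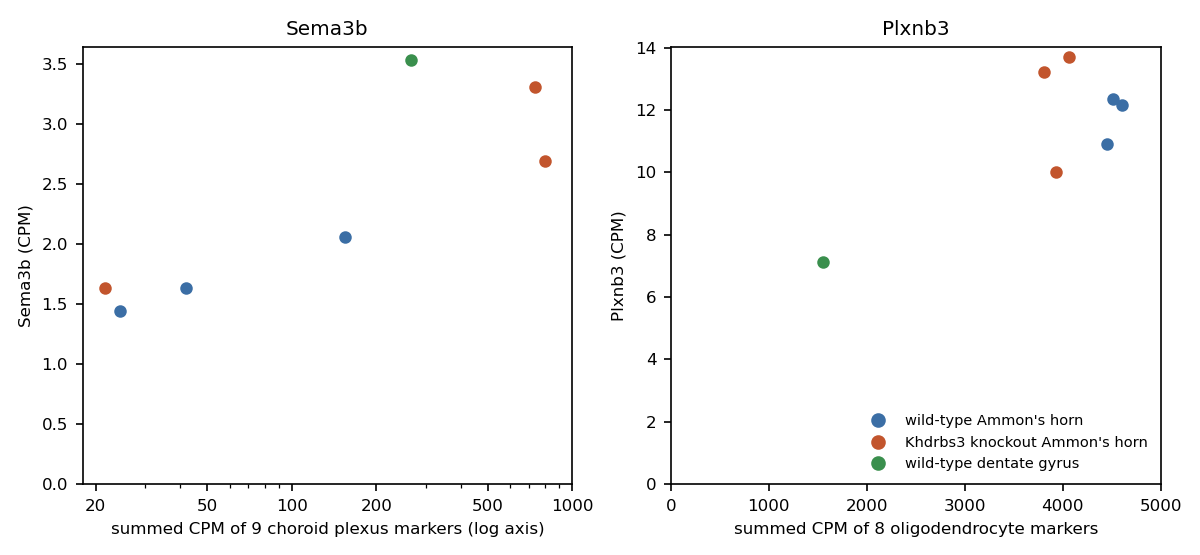
Each point is 1 library; the left panel plots Sema3b in CPM against the summed CPM of 9 choroid plexus markers on a log axis, and the right panel plots Plxnb3 in CPM against the summed CPM of 8 oligodendrocyte markers. The dentate gyrus library is highest in Sema3b at 3.54 CPM with a choroid plexus sum of 267 CPM, and lowest in Plxnb3 at 7.11 CPM with an oligodendrocyte sum of 1558 CPM.

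Membrane semaphorins of classes 4 to 7 split by gene, with 4 of 13 called higher and 2 lower. Sema5a (ENSMUSG00000022231.9, mm10 chromosome 15, 32244813 to 32696341), a transmembrane semaphorin with thrombospondin repeats that is known to act on granule cells through Plxna2, had the widest gap. Its level was 46.2, 38.5 and 59.6 CPM in wild-type Ammon's horn, 44.8, 55.7 and 55.0 CPM in the knockout and 254 CPM in the dentate gyrus, a ratio of 5.28 to the wild-type mean (log2 fold change 2.40 ± 0.17 SE, edgeR adjusted p = 1.13e-05). Both Ammon's horn groups overlapped, and no Ammon's horn library came near the dentate gyrus value. Summed over exon bins alone, the difference was 2.60 ± 0.19. Its receptor Plxna2 was at 80.7, 86.0 and 101 CPM against 111 CPM and was not called. The dentate gyrus library was above all 6 others for Plxna2, as it was for 28.5% of all records tested.

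The family relative Sema5b was at 9.70, 9.85 and 10.5 CPM in the 3 wild-type Ammon's horn libraries and at 14.2 CPM in the dentate gyrus (0.50 ± 0.15). Sema6d, which signals through Plxna1, rose from 48.4, 48.1 and 51.0 CPM to 70.0 CPM (0.51 ± 0.07), and Sema4f from 43.5, 46.7 and 44.3 CPM to 56.4 CPM (0.33 ± 0.07). These are smaller differences than that of Sema5a, all with the dentate gyrus above the 6 other libraries. The Sema5b call was lost without wild-type replicate 1 (adjusted p = 0.0589) or replicate 2 (adjusted p = 0.0584). Sema6a, a ligand of Plxna2 and Plxna4, fell from 17.6, 18.6 and 19.9 CPM to 12.3 CPM (-0.61 ± 0.11), and Sema4a from 19.9, 25.4 and 25.3 CPM to 16.4 CPM (-0.52 ± 0.15). The Sema4a call was lost without wild-type replicate 2 (adjusted p = 0.0641) or replicate 3 (adjusted p = 0.0576). Sema6b, the other class 6 ligand of Plxna4, was at 96.9, 106 and 120 CPM against 89.8 CPM and was not called. Sema6a is also expressed by oligodendrocytes, whose markers were lower in the dentate gyrus, 7 of 8 of them by at least 2-fold, while Sema4d, another semaphorin of oligodendrocytes, was at 33.1, 34.85 and 39.9 CPM against 35.9 CPM. The part of these cells was not tested.

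Of the plexins, the signalling receptors of semaphorins, 3 of 9 were called higher and 4 lower. Plxna4, which guides mossy fibres with class 6 semaphorins, was at 99.5, 89.1 and 120 CPM in wild-type Ammon's horn, at 95.9, 115 and 111 CPM in the knockout and at 219 CPM in the dentate gyrus (1.09 ± 0.14, edgeR adjusted p = 0.000372). Without wild-type replicate 2, the lowest of the 6, the difference was 0.99, just under 2-fold. Plxna1 differed the other way, falling from 152, 155 and 181 CPM to 101 CPM (-0.69 ± 0.11), although its record overlaps an antisense gene and the strand used for counting is not given in the sources used here. The class A plexins thus stood on both sides, with Plxna3 and Plxna4 higher, Plxna1 lower and Plxna2 not called.

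Plxnb3, a plexin expressed by oligodendrocytes, was at 12.2, 12.4 and 10.9 CPM in wild-type Ammon's horn, at 10.01, 13.2 and 13.7 CPM in the knockout and at 7.11 CPM in the dentate gyrus (-0.73 ± 0.18). Its fall in the dentate gyrus goes with that of the oligodendrocyte markers. In the knockout those markers summed to 3936, 3804 and 4061 CPM against 4602, 4517 and 4450 CPM, while the Plxnb3 values overlapped the wild type. The part of those cells in the Plxnb3 level was not tested. Plxnc1, the receptor of Sema7a, fell from 52.6, 51.2 and 53.0 CPM to 42.3 CPM (-0.30 ± 0.07), while Sema7a itself, at 87.4, 98.0 and 96.3 CPM against 87.9 CPM, was not called. Plxnb2 rose from 37.5, 43.4 and 44.6 CPM to 52.7 CPM (0.33 ± 0.09), a call lost in a fit of the 4 wild-type libraries alone. Plxnb1 was not called (-0.05 ± 0.09).

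**Figure D3:**
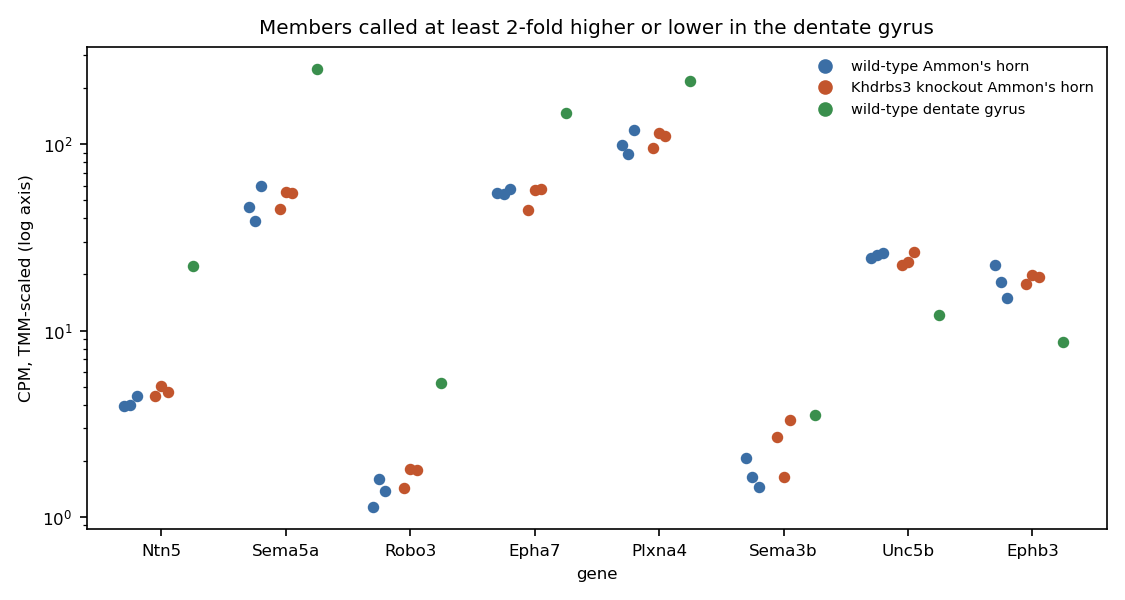
Level of the 8 guidance genes called at least 2-fold higher or lower in the dentate gyrus, in TMM-scaled CPM on a log axis; each point is 1 library (3 wild-type and 3 knockout Ammon's horn, 1 dentate gyrus). The dentate gyrus point lies above all 6 Ammon's horn points in the first 6 genes, from Ntn5 at 22.2 CPM to Sema3b at 3.54 CPM, and below all 6 in Unc5b at 12.1 CPM and Ephb3 at 8.70 CPM.

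The ephrins, ligands held on the cell surface, were called higher in 2 of 9 records and lower in 3. Efnb2, a transmembrane ligand of EphB receptors and of Epha4, fell from 33.7, 33.1 and 34.6 CPM in wild-type Ammon's horn to 23.5 CPM (-0.52 ± 0.08, edgeR adjusted p = 0.00145). Efna3 fell from 53.9, 59.9 and 56.4 CPM to 40.6 CPM (-0.48 ± 0.08), and the longer Efna5 record from 6.47, 6.26 and 7.28 CPM to 4.34 CPM (-0.62 ± 0.18). All 3 had the dentate gyrus below every Ammon's horn library. Without wild-type replicate 3 the longer Efna5 record was not called (adjusted p = 0.0606). The shorter Efna5 record, at 2.23, 3.11 and 3.63 CPM against 2.06 CPM, was not called. Efna1 was higher, at 2.50, 3.11 and 2.76 CPM against 4.36 CPM (0.64 ± 0.19), a call lost in 4 of 10 alternatives, among them those without wild-type replicate 1 (adjusted p = 0.0667) or replicate 3 (adjusted p = 0.0557). Efnb3, a transmembrane ephrin, rose from 115, 110 and 114 CPM to 134 CPM (0.24 ± 0.07). The Efnb3 call was lost in a fit of the 4 wild-type libraries alone and with the choroid plexus covariate.

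Eph receptors were called higher in 3 of 14 records and lower in 1. Epha7, a receptor of A-type ephrins, was at 55.1, 53.9 and 57.3 CPM in wild-type Ammon's horn, at 44.5, 57.0 and 57.2 CPM in the knockout and at 147 CPM in the dentate gyrus, a ratio of 2.66 to the wild-type mean (1.41 ± 0.11, edgeR adjusted p = 2.02e-05). This gap is far wider than the spread of the 6 Ammon's horn libraries. Epha3 rose from 12.3, 10.2 and 12.3 CPM to 18.1 CPM (0.64 ± 0.14), and Epha10, which lacks kinase activity, from 17.2, 19.7 and 15.2 CPM to 24.6 CPM (0.50 ± 0.13). For Epha7, Epha3 and Epha10 the dentate gyrus was above all 6 libraries. The Epha10 call was lost in exon-bin sums. Ephb3, a receptor of B-type ephrins, was lower, at 22.4, 18.3 and 15.0 CPM in wild-type Ammon's horn, 17.7, 19.8 and 19.3 CPM in the knockout and 8.70 CPM in the dentate gyrus (-1.09 ± 0.19, edgeR adjusted p = 0.00262). Without wild-type replicate 1, the highest of the 6, its difference was -0.94, still called but under 2-fold.

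The slits, secreted repellents, were called higher in 1 of 3. Slit1 rose from 139, 152 and 170 CPM in wild-type Ammon's horn to 268 CPM in the dentate gyrus (0.80 ± 0.10, edgeR adjusted p = 0.000361), with knockout libraries at 156, 169 and 155 CPM. Slit2 was at 42.9, 44.6 and 64.1 CPM against 41.6 CPM, and Slit3 at 54.8, 56.5 and 76.8 CPM against 84.0 CPM, and neither was called. Wild-type replicate 3 was the highest of its group for all 3 slits.

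Robo receptors were called higher in 2 of 4. Robo3 (chromosome 9, 37415669 to 37433163), a receptor known for letting commissural axons cross the midline, was at 1.13, 1.59 and 1.37 CPM in wild-type Ammon's horn, at 1.43, 1.80 and 1.78 CPM in the knockout and at 5.26 CPM in the dentate gyrus, a ratio of 3.85 to the wild-type mean (1.94 ± 0.22, edgeR adjusted p = 0.000183). These values rest on 59, 110 and 82 counts in the 3 wild-type Ammon's horn libraries and 327 in the dentate gyrus, and the groups of the 2 regions do not overlap. Robo2 rose from 66.4, 59.4 and 65.9 CPM to 92.4 CPM (0.53 ± 0.08). Robo1 was at 53.9, 48.6 and 61.9 CPM against 63.1 CPM (0.20 ± 0.11), and Robo4, a receptor of blood vessels, at 5.77, 5.42 and 5.07 CPM against 4.63 CPM; neither was called.

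Of the netrins, 1 of 4 was called. Ntn5 (chromosome 7, 45684022 to 45694556), a secreted netrin family protein, was at 3.93, 3.97 and 4.44 CPM in wild-type Ammon's horn, at 4.43, 5.03 and 4.67 CPM in the knockout and at 22.2 CPM in the dentate gyrus, a ratio of 5.41 to the wild-type mean (2.43 ± 0.12, edgeR adjusted p = 1.98e-06). The record is covered almost wholly by Sec1 on the opposite strand (45677689 to 45694402), which was at 4.12, 4.24 and 4.69 CPM against 23.6 CPM, and in the gene table the reads of the 2 genes cannot be told apart. In exon bins, Ntn5 stood at 4.10, 3.38 and 4.99 CPM against 15.5 CPM (1.90 ± 0.21), while Sec1 stood at 0.13, 0.23 and 0.17 CPM against 1.45 CPM. Most exon reads at this locus were therefore assigned to Ntn5 bins. The remaining netrins, Ntn1, Ntn3 and Ntn4, had log2 fold changes of -0.16, -0.19 and -0.00 and were not called.

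Netrin receptors were called higher in 2 of 5 and lower in 1. Unc5b, a repulsive netrin receptor that is also found on blood vessels, was at 24.5, 25.4 and 26.1 CPM in wild-type Ammon's horn, at 22.6, 23.3 and 26.5 CPM in the knockout and at 12.1 CPM in the dentate gyrus (-1.07 ± 0.12, edgeR adjusted p = 0.000135). The 6 Ammon's horn values lie close together and all are above the dentate gyrus. In exon-bin sums the difference was -0.96, just under 2-fold. Dcc, the attractive receptor, rose from 29.2, 24.7 and 32.4 CPM to 37.9 CPM (0.40 ± 0.13, edgeR adjusted p = 0.0447), and Unc5c from 48.3, 49.3 and 60.6 CPM to 67.2 CPM (0.35 ± 0.11, adjusted p = 0.0485). Both calls lie close to the threshold. Without wild-type replicate 1 or replicate 2 neither was called (adjusted p = 0.0686 and 0.0659 for Dcc, 0.0966 and 0.0970 for Unc5c). Unc5a and Unc5d, with log2 fold changes of 0.18 and -0.05, were not called.

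The comparison of the Khdrbs3 knockout with the wild type asks whether loss of this splicing regulator alters these families. None of the 70 records was called higher or lower by edgeR, where 0.0657% of the 22830 records tested were called higher and 0.00876% lower. Limma-voom also called none of the 70, and DESeq2 none of the 64 to which it gave an adjusted p. At an unadjusted p under 0.05, edgeR found 8 of 70 records, 7 above and 1 below, DESeq2 6 and 1, and limma-voom 6 and 1, and with edgeR 8.38% of all records were past that limit. The tally varied with the setting. It was 2 and 1 in exon-bin sums, 2 and 0 without knockout replicate 1, and 13 and 0 without wild-type replicate 3. In 7 records the knockout and wild-type libraries did not overlap, 5 above and 2 below, where 13.2% of all records did not. The shares among guidance genes, 11.4% and 10%, are near those backgrounds. The median log2 fold change was 0.03 over the guidance genes and 0.00 over all records.

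The records with the smallest unadjusted p in the knockout are given as values only. Sema3d, a secreted semaphorin, was at 15.6, 14.1 and 13.4 CPM in the wild type and at 18.1, 17.0 and 16.5 CPM in the knockout, without overlap (log2 fold change 0.26 ± 0.08 SE, edgeR adjusted p = 0.442). Efnb2 was at 33.7, 33.1 and 34.6 CPM against 38.2, 36.6 and 40.0 CPM, also without overlap (0.18 ± 0.06, adjusted p = 0.445). Both differences are small beside those between regions. Sema4f stood at 43.5, 46.7 and 44.3 CPM against 48.8, 50.2 and 47.4 CPM (0.12 ± 0.05), with all knockout libraries above the wild type by a narrow gap.

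In the longer Efna5 record, an A-type ephrin, wild-type libraries were at 6.47, 6.26 and 7.28 CPM and knockout libraries at 9.45, 7.12 and 8.50 CPM (0.33 ± 0.12, edgeR adjusted p = 0.518). The shorter record inside it was at 2.23, 3.11 and 3.63 CPM against 5.43, 3.55 and 4.497 CPM (0.58 ± 0.20, adjusted p = 0.502). In both, 1 knockout library lay within the wild-type range. Unc5d, a netrin receptor that also binds Flrt2, was at 31.3, 28.1 and 36.7 CPM against 38.7, 34.8 and 40.7 CPM (0.25 ± 0.10). Sema7a, the semaphorin anchored to the membrane by a lipid, was at 87.4, 98.0 and 96.3 CPM against 78.1, 89.3 and 84.7 CPM (-0.16 ± 0.06). The groups overlap for Unc5d and Sema7a.

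For Sema3b the knockout difference was 0.57 ± 0.25 (edgeR adjusted p = 0.570). Choroid plexus markers differed between the knockout libraries. Knockout replicates 1 and 3, rich in those markers, were at 2.70 and 3.31 CPM, and replicate 2, which is not, was at 1.64 CPM, within the wild-type range. Without both of the rich libraries the difference was -0.06, an alternative added after seeing the data. It leaves replicate 2 as the only knockout library, so the value is given without a test. The part of choroid plexus in the Sema3b knockout difference was not tested. Khdrbs2 and Khdrbs1, the close relatives of the deleted gene, were higher in the knockout (0.86 ± 0.09 and 0.51 ± 0.05, edgeR adjusted p = 0.00543 and 0.00173). Their calls do not show what size of difference the fit could find in the guidance genes.

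**Figure D4:**
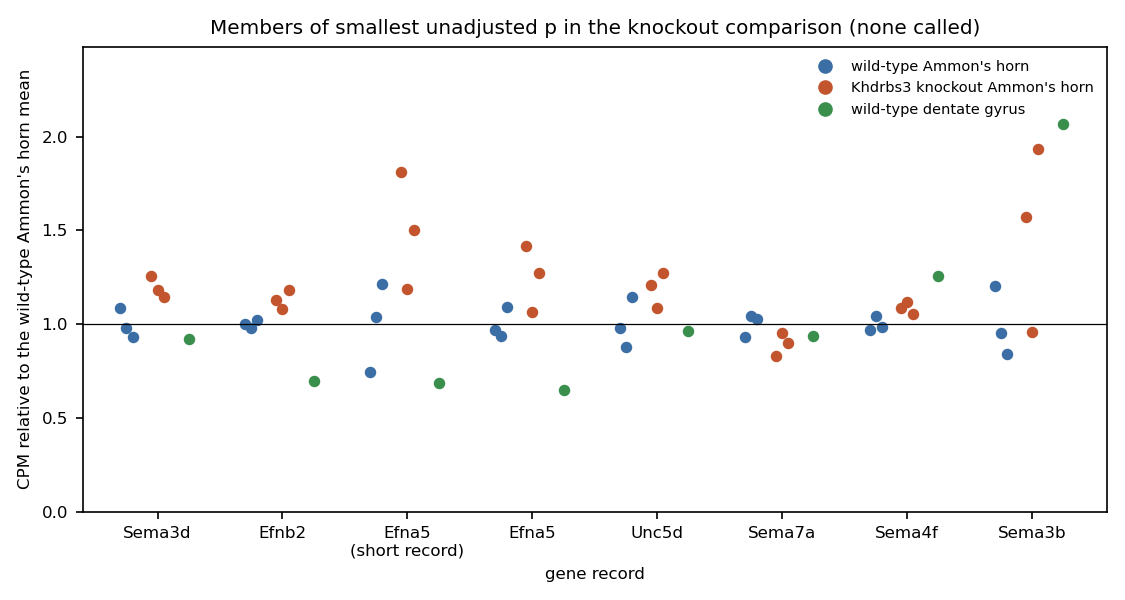
The 8 guidance gene records of smallest unadjusted p in the knockout comparison, each library's CPM divided by the wild-type Ammon's horn mean (line at 1); points are single libraries. Knockout points lie apart from wild-type points in Sema3d, Efnb2 and Sema4f and overlap them in the other 5 records, and no record was called.

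Between families the knockout differences stayed narrow. Over all records of each family, the medians of the log2 fold change ran from -0.09 in class 3 semaphorins to 0.11 in ephrins, with 0.05 in plexins, -0.04 in Eph receptors and 0.02 in slits. Plxnc1, at 52.6, 51.2 and 53.0 CPM against 55.2, 58.0 and 55.1 CPM, Sema3f, Ephb1 and Sema6a also had groups that did not overlap. Sema6a, at 17.6, 18.6 and 19.9 CPM against 17.0, 16.5 and 17.3 CPM (-0.14 ± 0.07), stood beside oligodendrocyte markers that were lower in the knockout for 8 of 8, of which 1 was called; their part in it was not tested.

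Levels could be set between genes for 37 of the 70 records, whose exon bins were rebuilt from gene models and gave an exon length. In exon reads per kilobase, scaled to library size as CPM is, the highest means in wild-type Ammon's horn were those of Epha4 at 48.8, Slit1 at 47.5, Unc5a at 47.4, Efnb3 at 36.3 and Ephb6 at 30.1. Epha4, an Eph receptor that binds ephrins of both types, ranged from 45.6 to 55.1 over the 3 wild-type libraries, Slit1 from 43.0 to 53.9 and Unc5a from 45.9 to 48.7, so the order of these 3 is within their spread. Efnb3, from 35.2 to 37.6, and Ephb6, from 27.5 to 31.5, stood below them and apart from each other. Next came Slit3 at 15.9, Efna3 at 13.6, Sema3e at 11.4, Epha6 at 8.99 and Robo1 at 8.98, and each of Slit3, Efna3 and Sema3e overlapped its neighbour in this order, as did Epha6 and Robo1. The lowest were Efna4 at 0.217 and Epha1 at 0.089.

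On the same scale, the dentate gyrus changed the order of some genes. Slit1, at 82.8, was above Epha4, at 62.7, and Sema5a rose from 3.64, 3.07 and 5.14 to 23.9, a level in the dentate gyrus close to that of Ephb6 at 26.8 and Epha7 at 22.7. Nrp2 was at 5.15, 5.51 and 6.39 and reached 11.3. Ntn5, from 1.85, 1.52 and 2.25, reached 6.97, and Ephb3 went from 4.59, 3.87 and 3.44 to 1.75. The dentate gyrus thus held Sema5a and Epha7 at levels per length that they did not have in any Ammon's horn library.

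**Figure D5:**
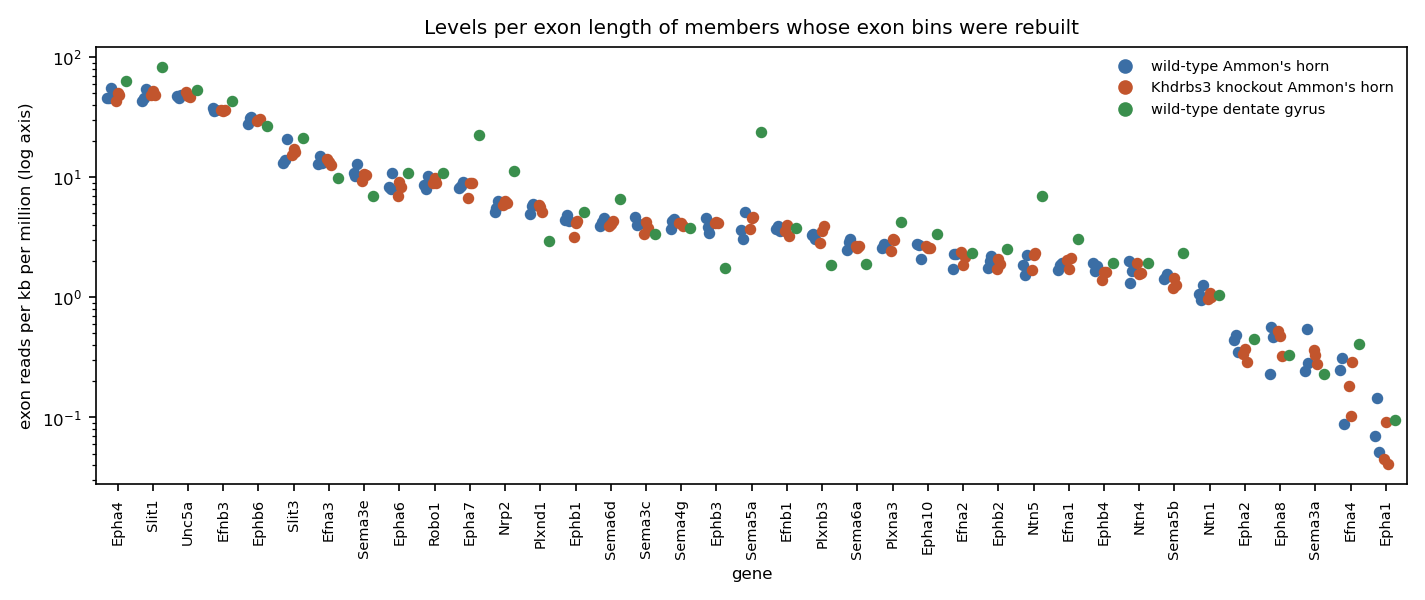
Exon reads per kilobase, scaled as CPM (log axis), of the 37 guidance genes with a rebuilt exon length, ordered by the wild-type Ammon's horn mean; each point is 1 library. Epha4, Slit1 and Unc5a lead with means of 48.8, 47.5 and 47.4, Epha1 is last at 0.089, and the dentate gyrus point stands clear of the Ammon's horn points in Sema5a at 23.9, Epha7 at 22.7 and Ntn5 at 6.97.

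Exon usage was examined because Khdrbs3 regulates splicing. The test compared each exon bin, a non-overlapping piece of a gene's exons, with the rest of its gene. None of 1234 bins in 60 guidance genes was called in the knockout by edgeR's diffSpliceDGE, where 0.00301% of 166154 bins were, and 19 had an unadjusted p under 0.05, where 1.72% of all bins did. The 3 bins of smallest p were bin 30 of Plxnb3, bin 48 of Plxnb2 and bin 38 of Plxnb1, all with an adjusted p of 0.999992. Plxnb3 bin 30 held 23, 38 and 21 reads in the wild type and 11, 21 and 16 in the knockout, which is 3.53%, 4.41% and 2.98% of the exon reads of the gene against 1.75%, 2.49% and 2.11%. The shares do not overlap, on few reads.

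In the dentate gyrus none of 1251 bins was called, where 0.213% of 169072 bins were, and 30 had an unadjusted p under 0.05, where 3.89% of all bins did. Without wild-type replicate 3, however, 2 bins of Slit1 were called. Bin 3 (chromosome 19, 41600451 to 41600689) took 4.17%, 4.45% and 3.61% of the exon reads of Slit1 in the 3 wild-type Ammon's horn libraries and 3.001% in the dentate gyrus. Its log2 difference from the gene was -0.30 with all libraries (adjusted p = 0.746) and -0.37 without that library (adjusted p = 0.0271). Bin 4, next to it, took 8.69%, 8.64% and 6.88% against 6.28%, and its difference was -0.24 and, without that library, -0.32 (adjusted p = 0.0456). Both calls thus rest on which wild-type libraries are used. Slit1 is on the minus strand and ends at 41600257, so these low-numbered bins lie toward its 3′ end. Whether read coverage toward that end differed between libraries was not tested.

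Other genes of the same pathways, 82 co-receptors, related cues and signalling genes in 85 records, were read from a list that leaves out the families above. In the knockout edgeR called none of the 85 and 3 had an unadjusted p under 0.05, where 8.38% of all records tested did. In the dentate gyrus 14 were called higher and 15 lower, of which 5 and 2 were at least 2-fold, a share to be read against the same backgrounds as above. Among the genes that carry guidance signals to the cytoskeleton, Ablim3, an actin-binding protein, rose from 11.2, 11.1 and 12.003 CPM to 47.1 CPM (2.04 ± 0.12). Tiam1, an activator of Rac that acts with Eph receptors, rose from 50.9, 48.5 and 57.8 CPM to 154 CPM (1.55 ± 0.09), and Spata13, an activator of small GTPases, from 8.23, 6.42 and 8.50 CPM to 21.5 CPM (1.48 ± 0.14). All 3 had the dentate gyrus above every Ammon's horn library.

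Among the related cues and receptors, Draxin, a secreted protein that binds Dcc and netrin, was at 0.74, 0.84 and 1.09 CPM in the 3 wild-type Ammon's horn libraries and at 1.82 CPM in the dentate gyrus (1.02 ± 0.27). Met, a receptor tyrosine kinase that can act with plexins, fell from 7.05, 7.01 and 8.14 CPM to 1.99 CPM (-1.89 ± 0.17), the widest fall of the list. Flrt1, a relative of the Unc5 ligands, fell from 11.8, 11.7 and 12.1 CPM to 5.84 CPM (-1.02 ± 0.12). Met and Flrt1 were below all 6 Ammon's horn libraries in the dentate gyrus.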

How the data were processed

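Polyadenylated RNA of 7 libraries was sequenced after Illumina TruSeq preparation, per the labels' protocols. The authors deposited raw counts per gene record, introns included, and raw counts per DEXSeq exon bin in each library. Neither had been normalised. The submitters' processing notes name the mm10 build and, with no role given, TopHat2 2.0.8b, Trim Galore 0.3.5, DESeq2 1.0.19 and bedtools 2.17.0. Depth per library is given with the results, and low counts carry more counting error.

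The gene table was fitted whole with edgeR 4.0.16 in R 4.3.3 (TMM, filterByExpr, quasi-likelihood F test), and a record was called at a Benjamini-Hochberg adjusted p under 0.05. The knockout fit used 6 libraries. The dentate gyrus fit used all 7 in 3 groups, with calls counted by direction at 2-fold or more. diffSpliceDGE tested exon bins that reached 10 reads in 3 or more libraries, in genes with 2 or more such bins. Scripts were tested on simulated data. Alternatives were RLE scaling, no low-count filter, DESeq2 1.42.0, limma-voom (limma 3.58.1), exon-bin sums, other sets of samples, covariates and bins, and leaving out in turn each library of the knockout comparison or, for the dentate gyrus, each wild-type Ammon's horn library. Exon lengths came from GENCODE M21 models for 37 of 70 records, 26 with all transcripts and 11 after the newest ones were dropped until bin number and gene ends matched. Records in joined exon-bin groups (5) have no exon-bin value. Promoters are from RefSeq (GRCm38.p6).

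Named with values were the 8 records of smallest knockout p, those called at least 2-fold in the dentate gyrus, the 4 next largest called changes in each direction, the 10 highest per kilobase, the top exon bins, the partners of named genes and 6 other pathway genes. Other members and the Slit1 bins were named after their values were seen. The members and lists were chosen with earlier results of these data known.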

Additional observations from a re-analysis of the deposited data

How the results depend on the processing

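The counts of guidance genes called in the knockout, of 0 higher and 0 lower, were 0 under every alternative run, and so was the count of knockout exon bins. In the main fits, 0.0657% of all records were called higher, 0.00876% lower, and 0.00301% of all bins were called. With shares this small, counts of 0 say little about the guidance genes themselves. In the dentate gyrus, dropping the fold limit gave 21 higher and 13 lower. Leaving out 1 wild-type library gave between 4 and 6 higher, between 1 and 2 lower, and between 0 and 2 exon bins. Exon-bin sums gave 6 and 2 again, with Sema3f (-1.12) in place of Unc5b. Of the 34 records called in the dentate gyrus with no fold limit, 23 kept their call and direction under each alternative run, 10 of them for most records and 9 for the 3 with no exon-bin value. The other 11, Unc5c, Sema3f, Efna1, Dcc, Sema3b, Sema4a, Efna5, Efnb3, Sema5b, Epha10 and Plxnb2, lost the call 32 times in all and kept their direction. The 6 other pathway genes named kept their calls. The knockout difference of Sema3b reversed to -0.0598 without both knockout libraries rich in choroid plexus markers; the cause was not tested. No paired analysis was possible because the replicate numbers follow the order of deposit and the labels pair no libraries. The single dentate gyrus library limits every regional value, and few reads limit Sema3b, Sema3f, Robo3, Efna4 and Epha1. Strand use in counting is not given in the sources used here, which limits Ntn5, Plxna1, Efna3, Efna4 and Epha1, whose records overlap other genes.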
